A study of Mus musculus with 12 samples.

Results

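The comparison described here set proximal tubules of dB/dB mice that also carried a catalase transgene (dB/dB catalase-Tg) against proximal tubules of wild type mice, and asked what differed from wild type when both the diabetic genotype and the transgene were present. It used 6 of the 12 arrays of the study, 3 from each group, chosen by the group named in the sample labels. The other 6 arrays, 3 from catalase-Tg mice without the dB/dB genotype and 3 from dB/dB mice without the transgene, entered the statistical model for its estimate of spread and are quoted beside single genes. All mice were 20 weeks old and received normal chow and water, the tubules were purified on Percoll, and total RNA was hybridised to Affymetrix mouse genome arrays, 1 per sample. The labels number the samples 1 to 3 in each group without saying whether they came from separate animals or pools, so every p-value refers to the variation among those 3 preparations, part of which may be technical. Neither the sex nor the strain background of the mice is given.

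The dB/dB mouse carries a mutation of the leptin receptor gene, Lepr, overeats, becomes obese and develops type 2 diabetes with kidney disease. Catalase, an enzyme of peroxisomes, turns hydrogen peroxide into water and oxygen. The proximal tubule takes back filtered glucose, phosphate, amino acids and protein from the urine, makes glucose, burns fatty acids in mitochondria and peroxisomes, and is rich in catalase. In published work on these mice the transgene is a rat catalase sequence controlled by the promoter of Kap, a kidney gene induced by androgens, which drives it in proximal tubule cells; the labels do not state the construct. A difference between these groups combines the dB/dB genotype, the transgene and any interaction between them, and this contrast alone cannot tell them apart.

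All values are the deposited GCRMA values on the log2 scale, and every difference is dB/dB catalase-Tg minus wild type on that scale unless stated otherwise. Of 45037 probe sets that are not controls, 18144 passed the filter, a value above 4 on 3 or more of the 12 arrays, and these included the best-expressed probe set of 9744 named genes. Between 36.9% and 38.5% of the probe sets on an array lay above 4 over the 6 arrays. Pearson correlations over the probe sets, which are not independent replicates, ran from 0.941 to 0.984 within wild type, from 0.961 to 0.995 within dB/dB catalase-Tg and from 0.952 to 0.989 between the groups. Wild type 1 and dB/dB catalase-Tg 1 stood apart towards the dB/dB arrays, with mean correlations of 0.987 and 0.983 with them against 0.954 and 0.961 with their own groups, and limma gave them the lowest array weights (0.227 and 0.172). The other 4 arrays correlated best with the catalase-Tg arrays, at 0.982 to 0.985 on average. The 3′ minus 5′ difference of the control probe sets lay between -0.06 and 0.38 for Gapdh and between 1.85 and 2.50 for Actb on the 6 arrays.

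The arrays of each group differed in the cell type markers they carried. The 15 markers of the proximal tubule present on the array were all expressed, and Slc34a1, the phosphate carrier of the brush border, read 12.84, 13.62 and 13.55 on wild type 1 to 3 and 13.66, 13.64 and 13.71 on dB/dB catalase-Tg 1 to 3. Markers of other kidney cells were present too. As means of each list's members relative to the 12-array mean, the 11 podocyte markers scored 2.29, -1.82 and 1.66 in wild type and 0.78, -0.91 and -1.52 in dB/dB catalase-Tg, the 19 endothelial markers 1.53, -1.47 and -0.18 against 1.55, -0.84 and -1.17, and the 11 fibroblast and mural markers that were tested 1.81, -1.62 and 0.25 against 1.56, -1.26 and -1.15. In both groups the array numbered 1 held the most of these markers and the least proximal tubule signal, -1.76 in wild type and -0.30 in dB/dB catalase-Tg against 0.16 to 0.66 on the other 4 arrays. In bulk samples such as these, fewer cells of a type and less RNA per cell cannot be told apart.

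**Figure D1:**
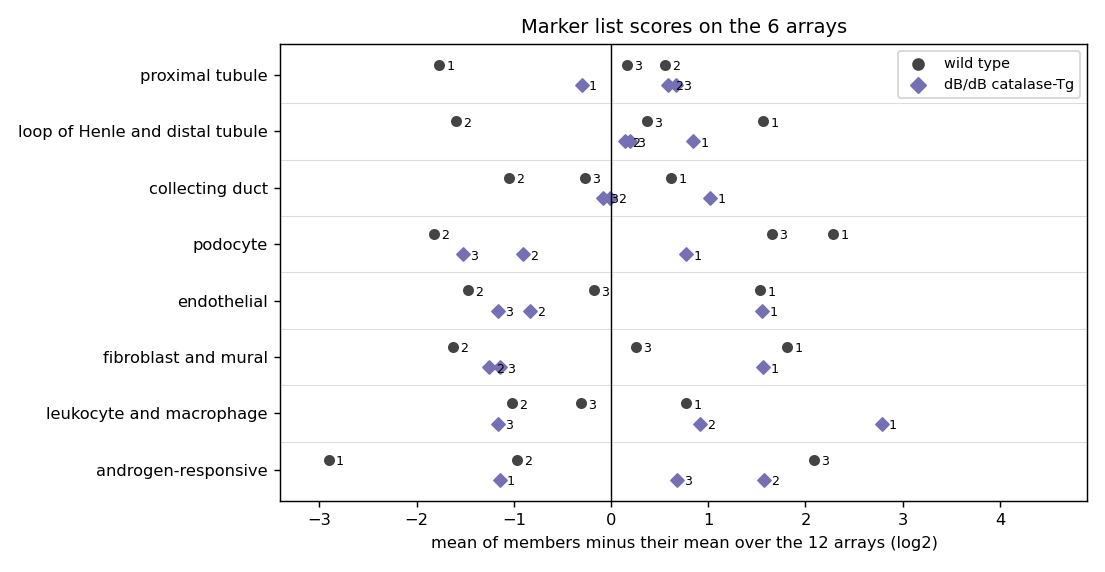
Score of each marker list (the mean of its members minus their mean over the 12 arrays, log2, horizontal axis) on the 3 wild type arrays (circles) and the 3 dB/dB catalase-Tg arrays (diamonds), each point numbered by its sample. Wild type 1 has the lowest proximal tubule score, -1.76, and dB/dB catalase-Tg 1 has the highest leukocyte score, 2.78, while the groups overlap on every list shown.

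Sex-linked genes differed between samples as well. Xist, the RNA that silences an X chromosome in female cells, read 2.32, 11.91 and 6.72 on wild type 1 to 3 and 2.34, 2.31 and 2.31 on dB/dB catalase-Tg. The Y-linked gene Eif2s3y read 8.13, 2.30 and 7.89 in wild type and 7.88, 8.10 and 8.37 in dB/dB catalase-Tg, and Kdm5d and Uty were likewise lowest on wild type 2. Wild type 2 thus carried the female pattern and wild type 3 both signals, whereas the 3 dB/dB catalase-Tg arrays carried the male pattern. The part of sex in the differences below was not tested. Fits without these arrays cannot decide it. With wild type 2 and 3 both left out, only wild type 1 remains, the array with the least proximal tubule signal. The median difference of proximal tubule transporters was 2.18 in that fit, against 0.51 as reported. For the marker scores there was also a fit with the mean of podocyte, endothelial and fibroblast and mural markers as a covariate. With it the median difference moved from 0.51 to 0.21 for proximal tubule transporters and from -0.33 to -0.08 for fibrosis genes. It moved from -0.15 to 0.46 for endothelial and from 1.62 to 2.01 for leukocyte markers. The endothelial markers enter the covariate itself, and the fibrosis list shares a member with its fibroblast and mural markers. The endothelial and fibrosis moves are thus partly set by the covariate's own members.

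A single probe set passed the test, and it read Med1. With limma's moderated test and Benjamini-Hochberg adjustment over the 18144 probe sets, 1 was called at adjusted p under 0.05 (0.00551%), none of them higher in dB/dB catalase-Tg, and the next lowest adjusted p was 1. At an unadjusted p under 0.05 there were 627 probe sets (3.46%), below the 907.2 that chance alone gives, of which 104 were higher (0.573%) and 523 lower (2.88%). Over genes, each by its probe set of highest mean, the 3 arrays of the groups did not overlap for 794 of 9744 (8.15%), 83 of them higher (0.852%) and 711 lower (7.3%).

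That split depends on how the arrays are scaled. The median difference of all genes was -0.12 on the deposited values, and 31.3% of genes lay above 0. When each array was centred on the median of the tested probe sets, 365 of the genes without overlap were higher and 247 lower (59.6% higher, against 10.5% on the deposited values). After quantile normalization the counts were 282 and 341 (45.3% higher). Differences below are therefore best read against -0.12. For 5608 genes (57.6%) the 95% interval of the difference lay within 1 of 0, so a 2-fold difference in either direction lay outside it. For the others, Med1 among them, the interval reached a 2-fold difference or beyond. The difference itself exceeded 1 in size for 268 genes (2.75%). Of those, 12 were higher without overlap (0.123%) and 32 lower (0.328%).

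Med1 encodes a subunit of Mediator, the complex that links transcription factors to RNA polymerase II, and is the subunit that binds nuclear receptors such as PPAR-alpha and PPAR-gamma. Its best-expressed probe set, 1421907_at, read 8.02, 7.98 and 8.03 in wild type. In dB/dB catalase-Tg it read 5.54, 6.17 and 6.32. The groups did not overlap and stood 1.66 apart at their nearest. Med1 fell by 2.00 (SE 0.21, 95% interval -2.47 to -1.54, 4.01-fold lower; limma adjusted p = 0.0314). The same probe set read 5.99, 6.12 and 6.32 in catalase-Tg and 8.21, 8.23 and 8.39 in dB/dB. Both groups with the transgene were thus low and both without it high, whatever the Lepr genotype.

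In the same fit, whose contrasts share arrays and are no independent evidence for one another, Med1 differed by -1.87 between catalase-Tg and wild type (limma adjusted p = 0.0146, 4 probe sets called, 0.022%) and by -2.27 when dB/dB catalase-Tg was set against dB/dB (adjusted p = 0.00974, the only call, 0.00551%). The dB/dB and wild type groups differed by 0.26 (adjusted p = 0.767, no probe set called, 0%) and dB/dB catalase-Tg and catalase-Tg by -0.13 (adjusted p = 0.894, 5 others called, 0.0276%).

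The other Med1 probe sets gave smaller differences, none of which passed. Probe set 1448708_at read 7.38, 6.58 and 6.83 in wild type and 5.40, 6.88 and 6.96 in dB/dB catalase-Tg, which overlap (difference -0.51, SE 0.39). The difference was -0.36 (SE 0.28) on 1421906_at and -0.05 (SE 0.15) on 1447450_at, which lay near 4, and 3 further probe sets were below the filter. Where each lies on the Med1 transcripts was not examined here. The call was lost in 14 of 27 other settings, with adjusted p from 0.00873 to 1 over all of them, while the difference stayed between -2.16 and -1.76. It was lost without wild type 2 (limma adjusted p = 0.229), wild type 3 (0.231), dB/dB catalase-Tg 2 (0.157) or dB/dB catalase-Tg 3 (0.0545), and held without wild type 1 or dB/dB catalase-Tg 1. With wild type 2 and 3 both left out, the difference was -2.01 (limma adjusted p = 0.0675), the lone wild type array being assumed to vary like the other groups.

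**Figure D2:**
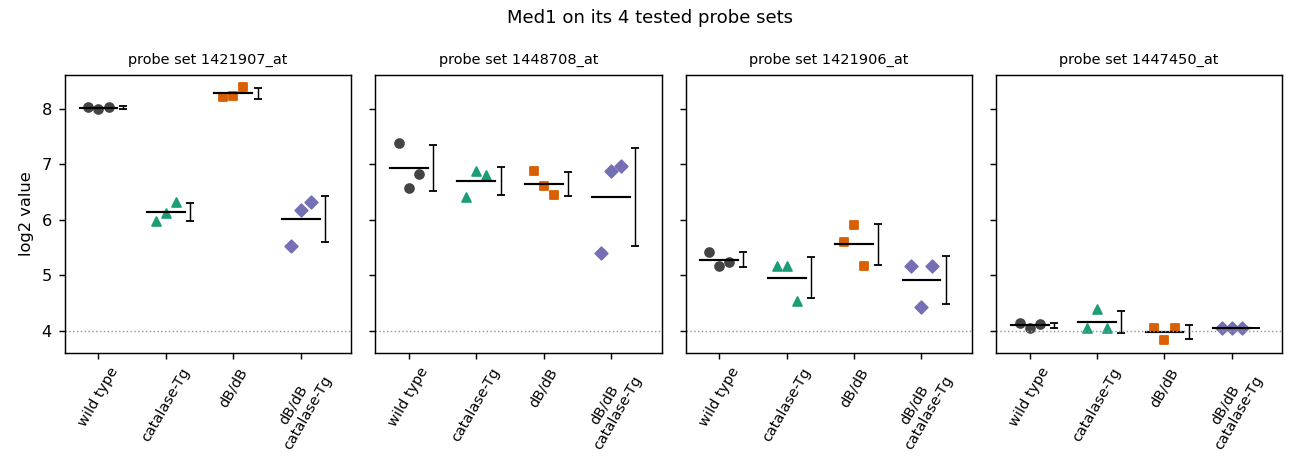
Log2 value of Med1 (vertical axis) on its 4 tested probe sets in the 4 groups; points are single arrays, horizontal lines group means, and bars beside them 1 SD (n = 3), with the filter level of 4 dotted. On 1421907_at the wild type arrays sit between 7.98 and 8.03 and the dB/dB catalase-Tg arrays between 5.54 and 6.32, whereas the groups overlap on 1448708_at.

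The other genes without overlap are given as values that did not pass, each with limma adjusted p = 1. Taking the smallest p in each direction, 11 genes beside Med1 stood lower. Psip1, which encodes the chromatin-bound coactivator LEDGF, read 6.69, 6.49 and 6.54 in wild type and 5.89, 5.76 and 5.73 in dB/dB catalase-Tg, a difference of -0.78 (SE 0.15). Its 2 other probe sets gave -0.74 (SE 0.22) and -0.15 (SE 0.16). Psip1 in dB/dB was -0.26 from wild type and in catalase-Tg -0.48, so dB/dB catalase-Tg was the lowest of the 4 groups.

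Neo1 encodes neogenin, a receptor for netrins and repulsive guidance molecules. It read 8.87, 8.65 and 8.52 in wild type and 7.56, 7.74 and 8.01 in dB/dB catalase-Tg (difference -0.91, SE 0.19), with -0.84 and -0.68 on the 2 other probe sets tested. Of the other Neo1 probe sets, only 1434931_at also separated the groups (by 0.49). Smarce1, a subunit of the SWI/SNF chromatin remodelling complex, read 7.40, 7.42 and 7.46 against 6.62, 6.28 and 6.05 (difference -1.11, SE 0.25), and -0.35 on its second probe set, where the groups overlap. As for Med1, the Smarce1 value of dB/dB was above wild type (by 0.36) and that of catalase-Tg below it (by -0.88), with no call in either contrast.

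Cdk5rap1, which modifies mitochondrial transfer RNAs, showed another order. It read 8.35, 8.66 and 8.64 in wild type, 6.27, 7.46 and 7.23 in dB/dB catalase-Tg, 6.53, 6.11 and 6.68 in dB/dB and 7.92, 7.18 and 7.03 in catalase-Tg. All 3 other groups thus lay below wild type, by 1.56 (SE 0.33) in dB/dB catalase-Tg, and dB/dB lay lowest. Ccl27a, a chemokine, read 6.66, 5.92 and 5.89 against 4.21, 5.22 and 4.64 (difference -1.47, SE 0.31) on a probe set whose name ends in _x_at, a mark for probes that may also match other transcripts. In dB/dB and catalase-Tg alone, Ccl27a differed from wild type by -0.13 and -0.42, so the low values were those of the 3 samples with both factors, a contrast of contrasts that was not tested.

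Carnmt1, which methylates carnosine, differed by -1.11, Cyb5r1, a cytochrome b5 reductase, by -0.86, and Immp1l, a peptidase of the mitochondrial inner membrane, by -0.77. On a second Carnmt1 probe set the groups overlapped (difference -0.45, SE 0.26). The noncoding RNA Kantr differed by -0.73, Tmem35b by -0.98 and 2810002D19Rik by -1.48. For 2810002D19Rik the catalase-Tg arrays were as low (-1.69 from wild type) and the dB/dB arrays close to wild type (-0.13). None of these single-group contrasts passed.

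Among the 12 genes higher without overlap, Rgcc, a regulator of the cell cycle that is induced by complement, came first. It read 5.48, 4.72 and 4.41 in wild type and 6.06, 6.43 and 6.78 in dB/dB catalase-Tg (difference 1.55, SE 0.34), beside 6.72, 7.40 and 7.20 in dB/dB and 4.66, 3.69 and 4.07 in catalase-Tg. Here the 2 groups with the dB/dB genotype were high and the 2 without it low. The difference was 2.23 between dB/dB and wild type (limma adjusted p = 0.363) and -0.68 from dB/dB to dB/dB catalase-Tg (adjusted p = 0.636).

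Acbd4, an acyl-CoA-binding protein, followed the transgene instead. It read 8.43, 8.97 and 9.09 in wild type and 9.38, 9.70 and 9.73 in dB/dB catalase-Tg (difference 0.77, SE 0.20), beside 10.19, 10.02 and 9.98 in catalase-Tg and 8.11, 8.32 and 8.31 in dB/dB. The 3 catalase-Tg arrays were the highest and the 3 dB/dB arrays the lowest, with the groups of this comparison between them. On a second Acbd4 probe set the difference was 0.94 (SE 0.60) with overlap, wild type 1 being lowest at 4.72.

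Pklr, the pyruvate kinase of liver and red cells, read 4.30, 6.19 and 5.43 against 6.39, 6.64 and 7.27 (difference 1.46, SE 0.45). Ftcd, an enzyme of folate and histidine breakdown, read 4.31, 5.26 and 5.80 against 5.83, 6.29 and 7.66 (difference 1.47, SE 0.50). Both groups spread widely and the gap between them was 0.20 for Pklr and 0.03 for Ftcd. On another Pklr probe set, 1421258_a_at, the groups overlapped.

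Reep6, a protein of the endoplasmic reticulum, differed by 1.65 (SE 0.51), with dB/dB catalase-Tg 3 at 9.54 and the other arrays of its group at 7.10 and 7.70. Cdkn1a, the cell cycle inhibitor p21, read 4.94, 4.61 and 4.94 against 5.83, 5.04 and 5.84 (difference 0.74, SE 0.23). The differences were 0.96 for Myh14, a nonmuscle myosin heavy chain, 0.55 for Mast3, a protein kinase, 0.71 for Rflnb, 0.62 for Nudt16 and 1.35 for 9630013D21Rik. Lpar2, a lysophosphatidic acid receptor, read 3.86, 3.87 and 3.70 against 4.02, 4.65 and 4.96, close to the filter level (difference 0.73).

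**Figure D3:**
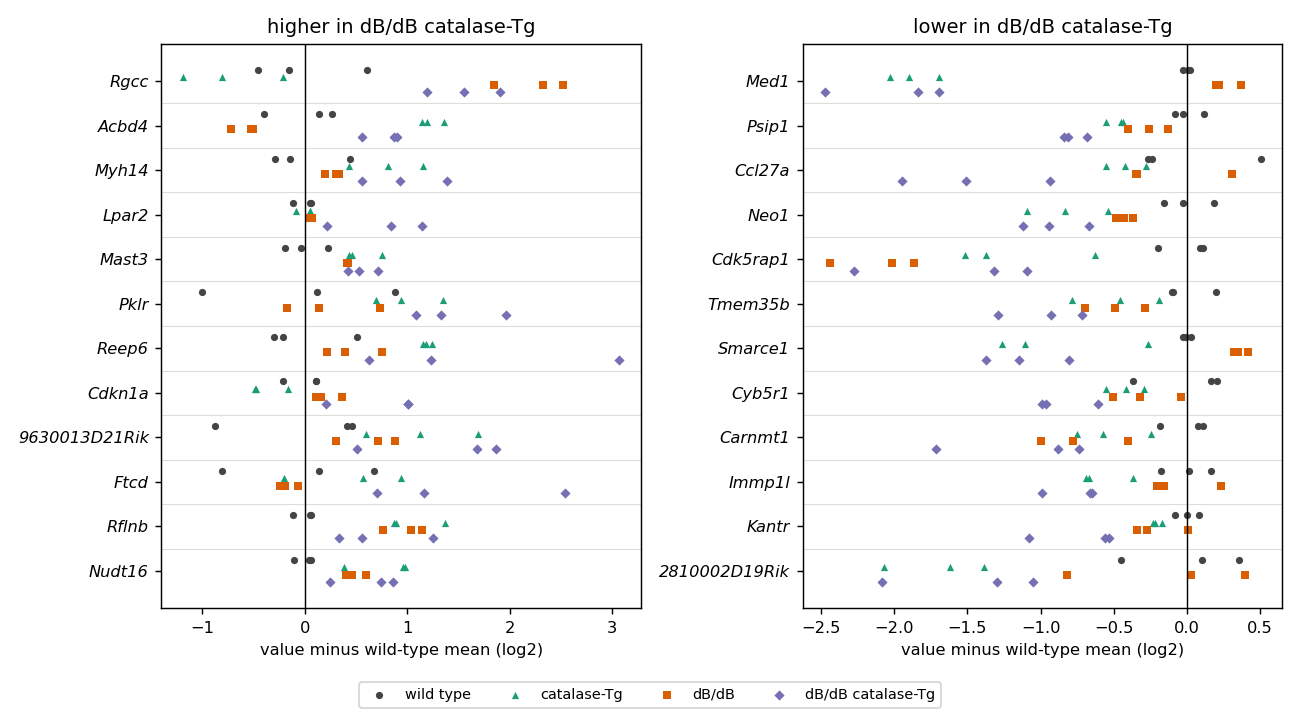
Values of the 12 genes higher (left) and 12 lower (right) in dB/dB catalase-Tg with no overlap between groups and smallest p, as log2 value minus the wild type mean (horizontal axis), 1 point per array in each of the 4 groups. Catalase-Tg and dB/dB catalase-Tg sit together away from wild type for Med1 and 2810002D19Rik, dB/dB and dB/dB catalase-Tg for Rgcc, and of these 24 genes Med1 alone passed the test.

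Of these 24 genes, 4 lie on chromosome 11 (Med1, Smarce1, Acbd4 and Rflnb), which holds 807 of the 9744 genes tested. Over all genes of chromosome 11, 81 of 807 (10%) did not overlap between the groups, beside 8.15% of all genes tested, and the shares of single autosomes ran from 4.8% to 11.5%.

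**Figure D4:**
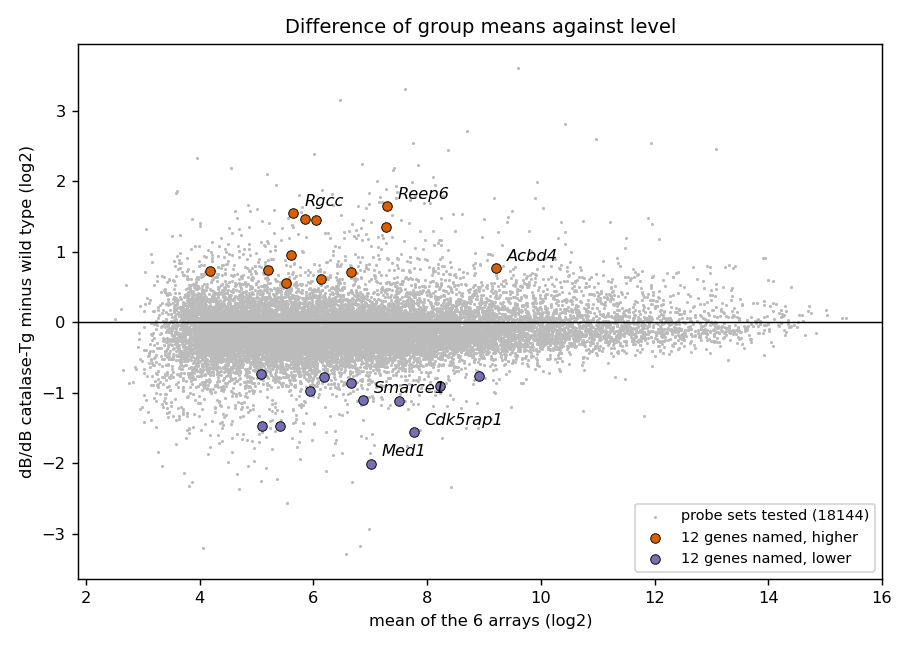
Difference of group means (dB/dB catalase-Tg minus wild type, log2, vertical axis) against the mean of the 6 arrays (log2, horizontal axis) for the 18144 probe sets tested, with the 24 named genes marked. Unmarked points farther from 0 than Med1 did not pass the test, and the bulk of points lies just below 0, as the median of -0.12 states.

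Neither gene behind the 2 factors was called in this comparison. Catalase mRNA, Cat, read 10.66, 12.68 and 12.43 in wild type and 11.78, 12.64 and 12.90 in dB/dB catalase-Tg. The difference was 0.52 (SE 0.48, 95% interval -0.54 to 1.57; limma adjusted p = 1) and 0.64 (SE 0.57) on the second probe set; both rest on wild type 1, without which the first was -0.11. Whether these mouse probe sets read a rat transgene was not examined, so they do not check the label. All 4 Lepr probe sets were below the filter, between 2.30 and 2.90 on these 6 arrays. Kap itself read 8.63, 11.70 and 15.23 in wild type and 13.04, 15.29 and 14.62 in dB/dB catalase-Tg (difference 2.46, SE 1.89), and overlapped between the groups.

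Other genes known from work on these mice were not called either. Angiotensinogen, Agt, the precursor of the angiotensins, read 3.68, 7.53 and 7.05 against 4.54, 6.36 and 7.25 (difference -0.03, 95% interval -2.10 to 2.03), and its sign turned with the scaling (0.12 after centring on the tested probe sets, 0.10 after quantile normalization). Bmf, a proapoptotic member of the Bcl-2 family, read 4.96, 3.77 and 4.35 against 5.16, 4.29 and 4.35 (difference 0.24, SE 0.31). Hmox1, heme oxygenase, read between 3.71 and 5.16 in wild type and between 3.85 and 5.33 in dB/dB catalase-Tg (difference 0.32, SE 0.48). Casp12 and Tgfb1 lay below the filter. Angptl7 and Fkbp1b, high on the catalase-Tg arrays alone (Angptl7 7.51, 7.96 and 9.47), stayed near the floor here, with differences of 0.04 (SE 0.39) and 0.19 (SE 0.22).

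Groups of genes were described by counts and medians, beside 31.3% above 0 and a median of -0.12 over all genes, and no member of any list passed the test (limma adjusted p = 1 for each). Of the proximal tubule transporters tested, 37 of 40 lay above 0, with a median of 0.51 (0.66 after centring on the tested probe sets). Abcc2, the apical exporter of organic anions, read 9.70, 11.02 and 10.30 against 11.01, 10.88 and 11.36 (difference 0.74, SE 0.29). Slc22a12, the urate carrier URAT1, differed by 1.42 (SE 0.74), and Slc13a3, a dicarboxylate carrier, by 1.48 (SE 0.91).

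These 2 carriers show what the list median rests on. Slc22a12 read 8.54 on wild type 1 and 11.31 to 12.25 on the other 5 arrays, and Slc13a3 read 9.29 on wild type 1 and 11.37 to 13.21 on the others. Without wild type 1 the differences were 0.44 and 0.56. Without wild type 1 the transporter median was -0.20 and that of the 15 proximal tubule markers, all above 0 with it, moved from 0.58 to -0.06. Among 20 genes of endocytosis and the brush border 12 lay above 0 (median 0.20, and -0.38 without wild type 1), with aminopeptidase N, Anpep, at 1.04 (SE 0.62; 0.13 without wild type 1) and neprilysin, Mme, at -1.08 (SE 0.60). Mme read 9.47, 9.01 and 8.53 in wild type and 7.73, 8.06 and 7.97 in dB/dB catalase-Tg, without overlap. On its other probe set, 1422975_at, the groups overlapped. The 13 tubule transcription factors had a median of 0.14 (-0.13 without wild type 1), with Hnf4a at 0.56 (SE 0.58; -0.23 without wild type 1) and the glucocorticoid receptor gene Nr3c1 at -0.57 (SE 0.44).

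Glucose and fat metabolism are main tasks of this segment. Of 16 gluconeogenesis genes 11 lay above 0 (median 0.29, and -0.07 without wild type 1), with Pck1, which commits carbon to glucose synthesis, at 0.80 (SE 0.43) and Fbp1, fructose bisphosphatase, at 0.58 (SE 0.37; 0.06 without wild type 1). The 11 glycolysis genes had a median of 0.07, and Pfkm was at -0.29 (SE 0.22; -0.03 without wild type 1). Of 33 genes of fatty acid oxidation and PPAR-alpha targets 24 lay above 0 (median 0.16, and -0.07 without wild type 1). Eci1, a mitochondrial enoyl-CoA isomerase, read 9.38, 9.87 and 9.29 against 10.03, 9.84 and 10.52 (difference 0.62, SE 0.21).

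Angptl4, a secreted inhibitor of lipoprotein lipase and a PPAR target, read 2.62, 3.58 and 4.16 in wild type and 3.53, 5.49 and 7.92 in dB/dB catalase-Tg (difference 2.19, SE 0.95), or 3.25 without dB/dB catalase-Tg 1 and 1.05 without dB/dB catalase-Tg 3. Cyp4a14, a fatty acid hydroxylase, ranged from 2.48 to 11.74 within wild type alone (difference 2.23, SE 2.13; 0.11 without wild type 1). Among 38 peroxisomal genes other than catalase 23 lay above 0 (median 0.21, and -0.20 without wild type 1). Decr2, a peroxisomal dienoyl-CoA reductase, was the member without overlap, at 7.24, 7.39 and 6.65 against 7.69, 7.54 and 7.68 (difference 0.54, SE 0.23), and Pxmp4, a membrane protein of peroxisomes, was at 0.90 (SE 0.54; 0.24 without wild type 1).

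In lipid and sterol synthesis 5 of 34 genes were lower without overlap (14.7%, beside 7.3% of all genes). The list median was -0.11, close to the all-gene -0.12, and became 0.04 under both centring on the tested probe sets and quantile normalization. Srebf1, the transcription factor that drives fatty acid synthesis, read 7.03, 7.60 and 6.74 in wild type and 6.56, 6.49 and 6.07 in dB/dB catalase-Tg (difference -0.75, SE 0.29). Scd1, the stearoyl-CoA desaturase that it induces, read 4.86, 7.48 and 4.64 against 4.74, 3.77 and 3.49 (difference -1.66, SE 0.64; -0.75 without wild type 2), with overlap. Fads1, another desaturase, differed by -0.61 (SE 0.26) and Pmvk, of the mevalonate pathway, by -0.70 (SE 0.28), both without overlap.

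Respiratory chain subunits differed little. The 95% interval lay within 1 of 0 for 42 of 43, beside 57.6% of all genes, and the median was -0.06 (0.09 after centring on the tested probe sets). Uqcrc2 of complex III differed by -0.29 (SE 0.19) and Ndufb5 of complex I by -0.27 (SE 0.18).

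**Figure D5:**
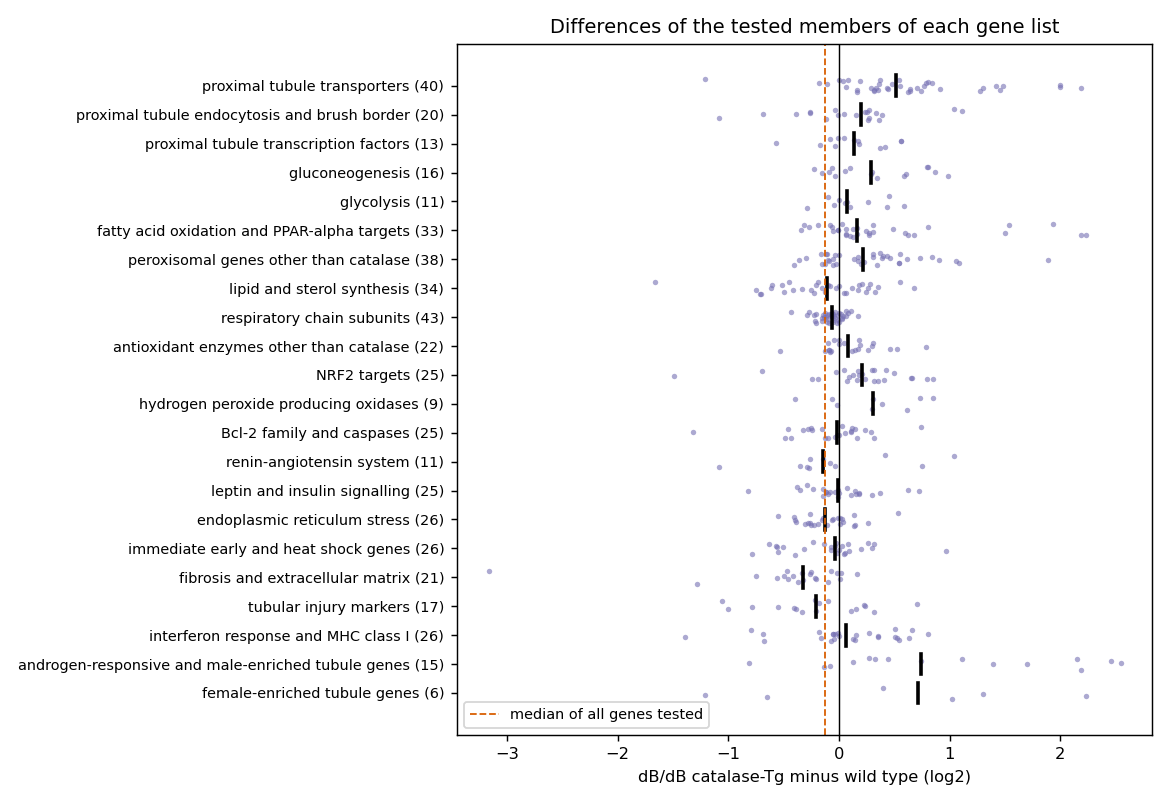
Difference of each tested member (points, log2, horizontal axis) for the gene lists, number of members in parentheses, with the list median as a black bar and the median of all genes, -0.12, dashed. The respiratory chain subunits cluster close to 0, proximal tubule transporters lie mostly above it (median 0.51) and fibrosis genes mostly below (median -0.33), and no point passed the test.

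Genes of peroxide handling come next. With catalase left out, the median of 22 antioxidant enzymes was 0.08 (-0.11 without wild type 1). Gpx3, the secreted glutathione peroxidase made by the tubule, read 14.65, 15.15 and 14.99 against 15.07, 15.10 and 15.14 (difference 0.17, 95% interval -0.19 to 0.53), and Sod3 differed by 0.79 (SE 0.70; -0.09 without wild type 1). Of 25 targets of NRF2, the transcription factor of the oxidative stress response, 20 lay above 0 (median 0.21), and this median kept its sign in every setting, from 0.05 to 0.41. Within that list Gstm1, a glutathione transferase, was at 0.66 (SE 0.34) and another, Gsta4, read 10.44, 9.77 and 8.72 against 9.22, 7.59 and 7.63 (difference -1.50, SE 0.49). Oxidases that produce hydrogen peroxide were expressed for 9 of 18 genes on the array (median 0.31, and -0.22 without wild type 1), with xanthine dehydrogenase, Xdh, at 0.85 (SE 0.50; 0.27 without wild type 1).

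The Bcl-2 family and caspase list split into 11 above and 14 below 0 (median -0.02, but 0.13 after centring on the tested probe sets and 0.11 after quantile normalization), with 4 of 25 lower without overlap (16%, beside 7.3% of all genes). Apaf1, the scaffold of the apoptosome, read 4.41, 4.60 and 4.93 in wild type and 3.89, 3.72 and 2.35 in dB/dB catalase-Tg (difference -1.32, SE 0.36), without overlap but partly under the filter level of 4, and Birc2, an inhibitor of apoptosis, differed by -0.49 (SE 0.19). In the renin-angiotensin list 8 of 11 lay below 0 (median -0.14, and 0.0049 after centring on the tested probe sets). Agtr1a, the type 1 angiotensin receptor, read 9.12, 9.26 and 9.17 against 8.63, 8.93 and 8.94 (difference -0.35, SE 0.29). Ace, which makes angiotensin II, differed by 0.75 (SE 0.44), and by -0.04 (SE 0.52) on its second probe set. The 25 genes of leptin and insulin signalling had a median of -0.01 (0.14 after centring on the tested probe sets), with Irs1, a docking protein of the insulin receptor, at -0.82 (SE 0.59; -0.07 without wild type 1 and -1.51 without wild type 2).

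Of 21 tested genes of fibrosis and the extracellular matrix 18 lay below (median -0.33), and without wild type 1 the median was 0.18. Col5a2, a fibrillar collagen chain, read 10.53, 6.97 and 7.69 in wild type and 7.58, 4.31 and 3.80 in dB/dB catalase-Tg (difference -3.17, SE 1.12) and -1.68 (SE 0.61) on its second probe set. Its highest value in each group came from the array numbered 1, which also had the highest fibroblast and mural marker scores (1.81 and 1.56). With the mean of podocyte, endothelial and fibroblast and mural markers as a covariate, the Col5a2 difference was -2.58. The part of fibroblast and mural cells alone was not tested. Col4a1, of the basement membrane, differed by -0.42 (SE 0.29).

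Of 17 markers of tubular injury 11 lay below 0 (median -0.21, and 0.43 without wild type 1), among them the adhesion molecule Vcam1 at -1.06 (SE 0.88) and the actin-binding Tmsb10 at -1.01 (SE 0.98). Without wild type 1 these 2 were at -0.36 and -0.04, and without wild type 2 at -1.48 and -2.22. The median was -0.03 for 26 immediate early and heat shock genes (0.64 without wild type 1 and 0.12 after centring on the tested probe sets). The chaperones Dnajb1 and Hsph1 were at -0.57 (SE 0.20) and -0.78 (SE 0.39). For Dnajb1 the groups did not overlap on this probe set but did on 1416756_at. Of 26 genes of endoplasmic reticulum stress 17 lay below 0 (median -0.13, close to the all-gene -0.12, and 0.022 after centring on the tested probe sets), with Xbp1, a transcription factor of the unfolded protein response, at -0.31 (SE 0.20) and Pdia6, a protein disulfide isomerase, at -0.38 (SE 0.21).

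Immune genes stood highest on 1 array. Cd74, the invariant chain of MHC class II, read 6.91, 6.88 and 6.88 in wild type and 12.39, 7.67 and 5.99 in dB/dB catalase-Tg (difference 1.79, SE 1.32), and H2-Eb1, a class II chain, read 5.07, 4.46 and 5.03 against 9.20, 6.05 and 4.72 (difference 1.80, SE 0.93). dB/dB catalase-Tg 1 was high for both, and without it the Cd74 difference was -0.06 and the H2-Eb1 difference 0.53. Of 21 leukocyte and macrophage markers on the array 10 were tested, 9 of them above 0 (median 1.62, and -0.07 without dB/dB catalase-Tg 1), and 11 were below the filter. With no filter, over all 21, the median was 0.29, so 1.62 rests on the members that passed it. The list scored 0.77, -1.02 and -0.31 in wild type and 2.78, 0.91 and -1.17 in dB/dB catalase-Tg. The 26 interferon response and MHC class I genes had a median of 0.06, which was -0.80 without dB/dB catalase-Tg 1, and Ifit2, an interferon-induced gene, was at -0.80 (SE 0.36).

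Markers of other kidney cells spread with the arrays. Of 11 podocyte markers 10 lay below 0 (median -1.53), and this median kept its sign in every setting, from -3.34 to -0.51. Wt1, a transcription factor of podocytes, read 7.89, 2.99 and 6.94 in wild type and 5.30, 3.54 and 3.07 in dB/dB catalase-Tg (difference -1.97, SE 1.16), and Ptpro, a podocyte phosphatase, 9.43, 3.65 and 8.78 against 7.11, 5.05 and 4.04 (difference -1.89, SE 1.36). Wild type 2 was as low as the dB/dB catalase-Tg arrays for both genes, so the groups overlap.

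Fibroblast and mural markers had a median of -0.48, with Pdgfra at -1.35 (SE 0.82), and endothelial markers one of -0.15 (0.0047 after centring on the tested probe sets), with Plvap, of fenestrated capillaries, at 1.08 (SE 0.61). Without wild type 1 these medians were 0.35 and 0.72. The 11 collecting duct markers tested had a median of 0.62 (0.14 without dB/dB catalase-Tg 1), with the anion exchanger Slc4a1 at 0.82 (SE 0.36), the 3 erythroid ones tested, which include Slc4a1, one of 0.82, and the 15 of the loop of Henle and distal tubule one of 0.19 (0.95 without wild type 1 and -0.56 without wild type 2). Calb1, which buffers calcium in distal tubule cells, read 12.95, 9.35 and 12.15 against 12.97, 12.56 and 12.48 (difference 1.19, SE 0.70; 0.12 without wild type 2), so wild type 2 alone was low.

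Sex-responsive tubule genes varied widely within wild type. The 15 androgen-responsive and male-enriched genes scored -2.90, -0.97 and 2.09 on wild type 1 to 3 and -1.14, 1.57 and 0.68 on dB/dB catalase-Tg 1 to 3, with 12 of 15 above 0 (median 0.74, and -0.45 without wild type 1). Cyp2d9, a male-enriched cytochrome P450, read 3.83, 5.67 and 9.94 against 6.13, 10.09 and 10.86 (difference 2.55, SE 1.88). Wild type 1 was low for these genes and for Kap although it carried the male pattern of Xist and Y-linked genes. The 6 female-enriched genes tested had a median of 0.71 (-0.19 without wild type 1).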

How the data were processed

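The authors deposited 1 normalized log2 value per probe set and array; GCRMA and limma are named per the submitters' processing notes, with versions not given in the sources used here. The deposited log2 values were used unchanged, with 45101 probe sets including 64 controls, which were left out. Genes were named by the platform annotation (34945 probe sets with 1 symbol, 932 with several, 9160 with none). limma 3.58.1 in R 4.3.3 was fitted with 1 mean per group over the 12 arrays (total df 10.4), with eBayes defaults and Benjamini-Hochberg adjustment over the 18144 probe sets above 4 on at least 3 arrays. The fit was tested on simulated data. No 2 arrays were identical, and array values carry no counting depth, so the number of arrays limits the precision.

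Named genes were, in each direction, up to 12 past adjusted p 0.05 without overlap, filled up by smallest p. To these came up to 4 members of smallest p of each list, of which some are named, and a fixed set (Cat, Lepr, Casp12, Bmf, Agt, Tgfb1, Hmox1, Kap, Med1, Angptl7, Fkbp1b and sex-linked genes). Of 771 list entries, 699 matched the array and 600 were tested. The comparison, the lists and the fixed genes were chosen with earlier results of these data known.

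Deviations from the group means correlated over probe sets at 0.71, 0.53 and 0.26 for same-numbered arrays of the 2 groups. Wild type 2 correlated more with dB/dB catalase-Tg 3 (0.58), and wild type 3 more with dB/dB catalase-Tg 2 (0.40). Deviations within a group cancel out, so these values do not show that equal numbers are paired. The numbers come from the sample titles, which do not say what they share. Alternatives covered the filter, the arrays fitted, array weights, scaling, a replicate block, arrays left out, a marker covariate and a minimum fold.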

Additional observations from a re-analysis of the deposited data

How the results depend on the processing

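The count of 1 called probe set (limma, adjusted p under 0.05) was the same with a filter above 6, trend and robust eBayes, array weights, quantile normalization, 1 probe set per gene, the marker covariate and, chosen after seeing the data, centring on the tested probe sets. With the replicate number as a block it was also 1 (Med1 limma adjusted p = 0.0478), so blocking on the number changed no call. It was 8 with no filter (1377 at unadjusted p under 0.05), 2 without wild type 1 and dB/dB catalase-Tg 1, 24 without catalase-Tg 1 as well, and 29 without wild type 2 and 3 (chosen after seeing the data). It was 0 with the 6 arrays alone (356 at unadjusted p under 0.05), centring on all probe sets, or a minimum fold of 1.5. Leaving out 1 of the 6 arrays gave 0 to 7, the 7 without wild type 1, and leaving out 1 of the other 6 (chosen after seeing the data) gave 0 each time, with Med1 at adjusted p 0.0725 to 0.115. The cause was not tested.

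Of 84 genes traced, 71 kept their direction in all settings run. Part of this was fixed in advance. Changes of filter, test or block, and leaving out arrays of the other groups, cannot change a difference. For the 24 genes named for not overlapping, leaving out arrays cannot reverse the sign. Leaving out 1 of the 6 arrays moved the difference from -0.23 to 1.02 for Hnf4a, from -0.092 to 1.43 for Sod3, from -0.11 to 0.90 for Cat and from -0.0345 to 0.76 for Hmox1, each below 0 without wild type 1. It moved from -0.060 to 3.14 for Cd74 (below 0 without dB/dB catalase-Tg 1), from -0.057 to 0.54 for Bmf (below 0 without wild type 2 or dB/dB catalase-Tg 1) and from -1.24 to 0.72 for Agt (above 0 without wild type 2, wild type 3 or dB/dB catalase-Tg 1). Agt gave 0.12 after centring on the tested probe sets and 0.10 after quantile normalization. Without wild type 1 and dB/dB catalase-Tg 1, with or without catalase-Tg 1, Cd74 gave -0.051 and Xdh -0.011. Without wild type 2 and 3, Agt gave 2.37, Bmf -0.36, Nr3c1 0.18, Pdia6 0.018, Calb1 -0.28, Eif2s3y -0.0100 and Kdm5d -0.046. Only 3 of 31 list medians kept their sign in every setting run (podocyte and erythroid markers and NRF2 targets). With no filter, which brings in members below it, several medians shrank. They became 0.29 for leukocyte, 0.35 for erythroid, 0.28 for collecting duct and -0.05 for fibroblast and mural markers. The median was then -0.15 for fibrosis genes, -0.02 for tubular injury markers and 0.14 for hydrogen peroxide producing oxidases. Podocyte, endothelial and proximal tubule marker medians were unchanged.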

Other observations

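Leaving out wild type 1 gave 7 called probe sets, chosen here after their values were seen. Besides Med1, Gm3716 read 2.65 on wild type 1 but 7.19 and 7.79 in the other wild type samples, and 3.16, 3.55 and 3.82 in dB/dB catalase-Tg (difference without wild type 1 -3.98, limma adjusted p = 0.00598). Antxr1, an anthrax toxin receptor that binds collagen, read 5.93 on wild type 1 but 3.19 and 3.18 in the other wild type samples, and 5.86, 5.23 and 5.94 in dB/dB catalase-Tg (difference 2.49, limma adjusted p = 0.0304). Atp10d and Slc25a48 differed by -1.72 and -1.69 (limma adjusted p = 0.0319 for each) and read 4.20 and 3.49 on wild type 1, at the dB/dB catalase-Tg level. The dB/dB arrays stood with wild type 1 for these genes, at 2.98, 3.81 and 3.16 for Gm3716, 7.01, 7.01 and 6.34 for Antxr1, 4.48, 4.16 and 4.34 for Atp10d and 3.53, 3.43 and 3.01 for Slc25a48. Wild type 1 also correlated best with the dB/dB arrays over all probe sets (mean 0.987), and since the genes were called only when it was left out, its distance from wild type 2 and 3 on them follows from that choice.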
